A study of Mus musculus with 11 samples.

Results

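This account covers 34 genes of the machinery that stores maternal mRNA in the mouse oocyte and destroys it after fertilisation, out of 24421 genes with counts. The genes were chosen by name for these functions, with no threshold on measured values but with earlier results of these data known, and all 34 were in the table. They comprise translational repressors and storage factors, poly(A)-binding proteins, deadenylases with their adaptors, terminal uridylyltransferases, readers of N6-methyladenosine (m6A), decapping factors and nucleases of the exosome.

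Total RNA was sequenced from 11 libraries in 4 groups, to compare oocytes and embryos with and without maternal Daxx, a histone H3.3 chaperone. Knockout 2-cell embryos (2 libraries) were set against control 2-cell embryos (3 libraries), and knockout MII oocytes (3 libraries) against control MII oocytes (3 libraries). All females were homozygous for the loxP-flanked allele Daxx tm2Led, had a mixed C57BL/6J and 129/Sv background and were older than 8 weeks. Knockout females also carried Tg(Zp3-cre)93Knw, in which the promoter of an oocyte zona pellucida gene drives Cre in growing oocytes, while controls lacked the transgene. The loss of Daxx and the presence of Cre therefore cannot be told apart. Oocytes were collected 20 h after hCG. Embryos of both groups came from in vitro fertilisation with sperm of JF1 males and were collected 33 h later, so the knockout embryos lacked maternal but not paternal Daxx. A library held the RNA of 50 pooled oocytes, or of 50 pooled embryos, obtained from 2 to 3 females, so single cells were not resolved and p-values measure the spread between pools.

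Counts summed to 17978192 to 25308468 per embryo library and 32582998 to 39798586 per oocyte library. Daxx had 22.8 and 25.5 CPM (counts scaled to a common library total) in knockout embryos, against 35.2 to 46.7 CPM in control embryos, and 7.84 to 8.40 CPM in knockout oocytes, against 86.2 to 97.2 CPM in control oocytes. The stages were distinct by their markers: 8 oocyte genes summed to 1617 to 2119 CPM in embryos and 11950 to 12500 CPM in oocytes, and 6 genes of the 2-cell stage to 594 to 720 CPM in embryos and 2.39 to 4.52 CPM in oocytes. A list of 16 granulosa and cumulus cell genes summed to 255 to 310 CPM in knockout embryos and 286 to 332 CPM in control embryos, against 106 to 115 CPM in knockout oocytes and 102 to 107 CPM in control oocytes. Of these 16, 8 or 9 were above 3 counts in every library of a group. At most 3 counts in every library were seen for 6 in knockout embryos, 4 in control embryos, 5 in knockout oocytes and 7 in control oocytes. At 0 in every library were Foxl2, Lhcgr and Inha in knockout embryos and Inha and Fst in control embryos. In oocytes these were Ptx3 and Fst in knockouts and Foxl2, Ptx3 and Fst in controls. The sums do not show which of the 16 genes carry them, and the number of such cells was not measured. The part of such cells in the changes between stages was not tested. The spans of 11 of the 34 genes (Btg4, Cnot1, Cnot7, Tut7, Pabpn1l, Cpeb2, Dcp1a, Eif4enif1, Dis3, Igf2bp1 and Igf2bp3) overlap that of another counted gene, and since the sources used here do not say how strand was handled in counting, their values may include reads of that neighbour.

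A growing oocyte makes a large store of mRNA that it does not translate at once. Repressors bound to the cap or to the 3' untranslated region, together with short poly(A) tails, keep these messages dormant. Meiotic maturation and fertilisation then wake some of them and mark others for removal: deadenylases of the CCR4-NOT and PAN2-PAN3 complexes shorten the tail, terminal uridylyltransferases add uridines to short tails, and decapping enzymes and the exosome degrade the body, until the embryo's own transcripts take over at the 2-cell stage in the mouse. Cytoplasmic polyadenylation elements (CPEs), the binding sites of CPEB proteins, lie shortly before the polyadenylation hexamer of many dormant messages.

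Several of the genes are themselves maternal messages, and their annotated 3' ends were searched for the CPE. In GENCODE vM21 protein-coding transcripts (GRCm38), 31 of the 34 genes had a hexamer (AATAAA or ATTAAA) in the last 40 bases. The longest such transcript of each gene was used. TTTTAT or TTTTAAT was searched on the sense strand in the 100 bases before the hexamer and could reach into its first bases. It occurred in 6 of the 31, or 19.4%, close to the 19.2% of the 11884 genes tested between the control stages that had such a 3' end. Among genes that were lower in control embryos than in control oocytes, 4 of 15 members and 19.4% of all genes held it, and among those that were higher, 2 of 13 members and 18.7% of all genes. The 6 windows of 30 bases are shown because they are the ones that hold the element, which is in capitals together with the hexamer where the window reaches it.
Dcp1a, chr14:30527001-30527030, plus strand: atatgtttgcaaatatatttTTTTAATAAA
Btg4, chr9:51119476-51119505, plus strand: ctttatgtaaaaTTTTATgaacactagtga
Cnot7, chr8:40493041-40493070, minus strand: aagtcttaaggtacaTTTTATatcAATAAA
Pan2, chr10:128321301-128321330, plus strand: tgcttaaaacagcatgTTTTATaaAATAAA
Pan3, chr5:147548467-147548496, plus strand: tattTTTTAATaaagaattgcagaAATAAA
Ythdf2, chr4:132184996-132185025, minus strand: ctctgccaaactTTTTATtataaaatatat
In Dcp1a the element TTTTAAT overlaps the hexamer AATAAA and begins 4 bases before it. The distance from the start of the last element to the start of the hexamer was 8 bases in Pan2, 9 in Cnot7, 20 in Pan3, 66 in Btg4 and 78 in Ythdf2. Btg4, Cnot7, Pan2 and Dcp1a held 2 elements each, of which the window shows the last. The transcript end used in these pools was not measured, so the windows describe the annotation. A further pair of sense-strand motifs was searched in the 100 bases before the hexamer only. TATTTAT, the core of AU-rich elements, was in 4 of 31 members (12.9%) and 4.54% of all genes, and TGTANATA, the Pumilio site, in 1 of 31 (3.23%) and 4.48%.

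Promoters were compared because the genes split into falling and rising groups at the stage at which the embryonic genome becomes active. RefSeq (GRCm38.p6) held windows from 250 bases before to 50 bases after the start for 25 of the 34 genes, 37 windows in all. The E-box CANNTG, a palindrome counted once for both strands, was in 12 of 20 windows of genes lower in control embryos and in 4 of 16 windows of genes higher there, against 67.6% and 64.1% of the windows of all genes lower and higher in control embryos. Some genes have several windows, and 14 of the 37 overlap another window of the same gene. Counted by gene, the E-box was in 11 of 14 genes lower in control embryos (78.6%, against 70.8% of all lower genes) and in 4 of 10 genes higher there (40.0%, against 67.9% of all higher genes). It was in 43.2% of the members' windows, 66.0% of the windows of all genes tested between the control stages and 72.3% of all windows of the table. The members' windows held a median of 30 CG dinucleotides, against 18 for all tested genes, and GC boxes (GGGCGG on either strand) were in 62.2% and 57.3% of windows. By gene, GC boxes were in 57.1% of the lower members and 80.0% of the higher ones, against 62.1% and 65.1% of all such genes. Of 2 further motifs searched, TAATTG was in 0 of the 14 lower and 2 of the 10 higher members. TATAAA was in 1 of the 14 and 0 of the 10. No difference in motifs between lower and higher genes was tested. The window of the gene with the largest fall, Pabpn1l, and the first listed of the 2 windows of the gene with the largest rise, Tut4, follow, with CANNTG and GC boxes in capitals.
Pabpn1l, chr8:122622686-122622985, minus strand: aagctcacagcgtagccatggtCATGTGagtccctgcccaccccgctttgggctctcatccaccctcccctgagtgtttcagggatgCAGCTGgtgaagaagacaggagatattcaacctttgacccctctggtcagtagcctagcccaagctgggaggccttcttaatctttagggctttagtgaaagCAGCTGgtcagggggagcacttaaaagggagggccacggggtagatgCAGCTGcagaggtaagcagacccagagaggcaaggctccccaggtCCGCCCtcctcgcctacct
Tut4, chr4:108459160-108459459, plus strand: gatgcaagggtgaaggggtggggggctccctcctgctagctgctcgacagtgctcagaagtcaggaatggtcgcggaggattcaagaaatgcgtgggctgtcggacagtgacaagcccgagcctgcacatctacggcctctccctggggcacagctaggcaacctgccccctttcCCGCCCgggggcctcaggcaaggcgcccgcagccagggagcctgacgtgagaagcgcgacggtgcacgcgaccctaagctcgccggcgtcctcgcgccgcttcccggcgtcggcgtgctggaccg
The Pabpn1l window held 4 E-boxes, 1 GC box and 5 CG dinucleotides. The Tut4 window shown held no E-box, 1 GC box and 28 CG dinucleotides, and its second window held no E-box, no GC box and 18 CG dinucleotides. A match describes the letters only.

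Most of the machinery changed between the MII oocyte and the 2-cell embryo, and it changed in both directions. Of the 33 members tested in controls, 15 were higher in embryos (45.5%; 43.1% of the 15577 genes tested) and 16 were lower (48.5%; 40.0% of all genes), by edgeR's quasi-likelihood test at an adjusted p of 0.05. The size of the members' changes was near that of all genes, with a median absolute log2 change of 1.41 for members and 1.41 for all genes tested. Changes of at least 2-fold up were seen in 9 members and of at least 2-fold down in 12 members, or 27.3% and 36.4%, against 33.0% and 28.5% of all genes. In knockouts, 15 of 34 members were higher in embryos (44.1%; 42.5% of 16592 genes) and 15 were lower (44.1%; 37.7% of genes). The shares are thus near the background, and what follows describes which members moved which way. All levels are shares of the counted reads of a library, so that a lower share and less RNA per embryo cannot be told apart, nor can loss of old transcripts and slower synthesis of new ones.

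**Figure D1:**
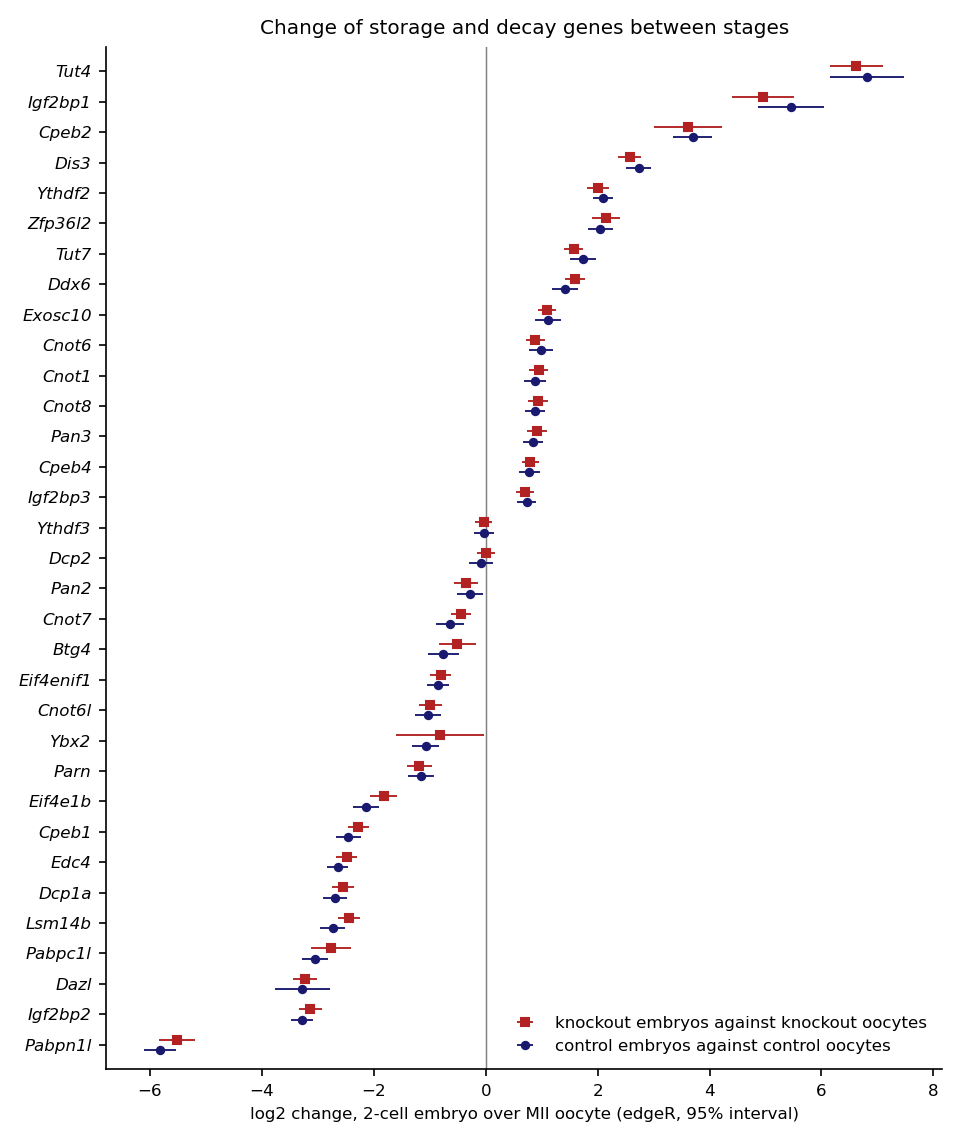
Log2 change of 2-cell embryos over MII oocytes for the 33 genes tested in controls, in knockouts (squares) and in controls (circles), with 95% intervals from edgeR, ordered by the change in controls. The changes ran from -5.82 for Pabpn1l to 6.81 for Tut4 in controls, and no gene that passed in both comparisons had opposite signs.

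Both poly(A)-binding proteins of the list fell, and Pabpn1l had the largest fall of all members. Pabpn1l, which encodes a poly(A)-binding protein of oocytes and early embryos that acts with BTG4 in the mouse, had 3.36 and 4.49 CPM in knockout embryos and 3.00, 3.29 and 2.65 CPM in control embryos, against 173, 179 and 167 CPM in knockout oocytes and 164, 161 and 171 CPM in control oocytes. Pabpn1l fell by 5.52 (SE 0.14) on the log2 scale in knockouts and fell by 5.82 (SE 0.13) in controls, and the embryos kept 2.27% of the oocyte level in knockouts and 1.81% in controls. Pabpc1l, the embryonic cytoplasmic poly(A)-binding protein (ePAB), had 41.2 and 56.9 CPM in knockout embryos and 34.8, 44.5 and 38.8 CPM in control embryos, against 313, 347 and 309.8 CPM in knockout oocytes and 336, 316 and 312 CPM in control oocytes. Pabpc1l fell by 2.76 (SE 0.15) on the log2 scale in knockouts and fell by 3.06 (SE 0.11) in controls. For both genes every embryo library was below every oocyte library. Because Pabpn1l fell further, Pabpc1l made up 84.7% ± 0.307 of the pair's reads per kilobase in knockout embryos and 85.4% ± 1.50 in control embryos, against 45.3% ± 0.868 in knockout oocytes and 46.4% ± 1.50 in control oocytes (SD over libraries, here and below, with n as given for the groups).

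Among the storage factors, the CPEB proteins changed in opposite directions. Cpeb1, which binds CPEs and holds messages dormant until maturation, had 78.8 and 84.0 CPM in knockout embryos and 69.4, 74.8 and 72.7 CPM in control embryos, against 392, 371 and 380.5 CPM in knockout oocytes and 359, 366 and 442 CPM in control oocytes. Cpeb2, its relative, had 124 and 64.4 CPM in knockout embryos and 87.6, 85.5 and 69.1 CPM in control embryos, against 8.28, 7.79 and 6.19 CPM in knockout oocytes and 7.24, 5.68 and 5.41 CPM in control oocytes. Every embryo library lay below every oocyte library for Cpeb1 and above every one for Cpeb2, although the 2 knockout embryo pools lay far apart in Cpeb2. Cpeb1 fell by 2.27 (SE 0.08) on the log2 scale in knockouts and fell by 2.45 (SE 0.11) in controls, and Cpeb2 rose by 3.61 (SE 0.26) on the log2 scale in knockouts and rose by 3.70 (SE 0.16) in controls. Cpeb4, which replaces CPEB1 on messages during meiosis in the frog, averaged 344 ± 25.1 CPM in knockout embryos and 320.4 ± 22.6 CPM in control embryos, against 191 ± 3.97 CPM in knockout oocytes and 184 ± 2.12 CPM in control oocytes, and Cpeb4 rose by 0.80 (SE 0.07) on the log2 scale in knockouts and rose by 0.78 (SE 0.09) in controls. Cpeb1 therefore took 31.2% ± 4.35 of the reads per kilobase of the 3 genes in knockout embryos and 30.4% ± 2.14 in control embryos, against 82.5% ± 0.129 in knockout oocytes and 83.3% ± 1.67 in control oocytes. These shares leave out Cpeb3, which is not a member and is named after its values were seen. Cpeb3 averaged 76.1 CPM in knockout embryos and 79.8 CPM in control embryos, against 148 CPM in knockout oocytes and 144 CPM in control oocytes. It also fell (log2 -1.01 in knockouts and -0.88 in controls).

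The cap-binding and messenger ribonucleoprotein (RNP) factors mostly fell. Lsm14b, an RNP protein that partners DDX6 in oocytes, had 299 and 304 CPM in knockout embryos and 247, 273 and 221 CPM in control embryos, against 1511, 1638 and 1625 CPM in knockout oocytes and 1626, 1619 and 1623 CPM in control oocytes. Eif4e1b, an oocyte form of the cap-binding protein eIF4E, had 279 and 327 CPM in knockout embryos and 216, 282 and 234 CPM in control embryos, against 975, 1086 and 1062 CPM in knockout oocytes and 1060, 1063 and 1039 CPM in control oocytes. Both were several-fold lower in all embryo libraries. Lsm14b fell by 2.45 (SE 0.09) on the log2 scale in knockouts and fell by 2.74 (SE 0.10) in controls, and Eif4e1b fell by 1.83 (SE 0.11) on the log2 scale in knockouts and fell by 2.13 (SE 0.11) in controls. Eif4enif1, which encodes the eIF4E transporter 4E-T, averaged 601 ± 36.6 CPM in knockout embryos and 594 ± 61.7 CPM in control embryos, against 1019 ± 5.80 CPM in knockout oocytes and 1057 ± 19.3 CPM in control oocytes and fell less, by 0.81 in knockouts and 0.86 in controls. Ddx6, the RNA helicase that joins repression to decapping, moved the other way, with 179.7 and 161 CPM in knockout embryos and 188, 148 and 165 CPM in control embryos, against 57.0, 52.4 and 54.7 CPM in knockout oocytes and 64.8, 59.4 and 60.6 CPM in control oocytes. Ddx6 rose by 1.59 (SE 0.08) on the log2 scale in knockouts and rose by 1.41 (SE 0.11) in controls.

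The Y-box protein Ybx2 (MSY2), an abundant binder of maternal mRNA in the mouse oocyte, had 108 and 213 CPM in knockout embryos and 117, 159 and 145 CPM in control embryos, against 278, 285 and 265 CPM in knockout oocytes and 299.8, 279.5 and 290.0 CPM in control oocytes. The 2 knockout embryo pools lay apart by about the size of the change itself. The fall passed in controls (log2 -1.07, SE 0.11, edgeR adjusted p = 2.0e-06) and not in knockouts (log2 -0.82, SE 0.31, edgeR adjusted p = 0.055), where it was -0.40 without knockout embryo replicate 2 and -1.43 without replicate 3, each with 1 knockout embryo library left, and it passed in knockouts with limma-voom (log2 -0.92). Dazl, a germ cell protein that promotes translation through the 3' untranslated region, had 39.0 and 41.5 CPM in knockout embryos and 52.0, 37.7 and 27.5 CPM in control embryos, against 351, 387 and 362 CPM in knockout oocytes and 382, 411 and 328 CPM in control oocytes. Dazl fell by 3.24 (SE 0.09) on the log2 scale in knockouts and fell by 3.28 (SE 0.22) in controls, and no embryo library reached the oocyte range.

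The 3 IGF2 mRNA-binding proteins, which stabilise and locate their targets, changed in different directions. Igf2bp2 had 125 and 129.7 CPM in knockout embryos and 115, 107 and 106 CPM in control embryos, against 1165, 1067 and 1016 CPM in knockout oocytes and 1043, 1064 and 1040 CPM in control oocytes. Igf2bp1 had 49.6 and 50.2 CPM in knockout embryos and 41.5, 49.6 and 82.9 CPM in control embryos, against 1.94, 0.904 and 1.83 CPM in knockout oocytes and 1.10, 1.46 and 1.30 CPM in control oocytes. Igf2bp3 had 206 and 205 CPM in knockout embryos and 221, 227 and 235 CPM in control embryos, against 128, 119 and 121 CPM in knockout oocytes and 131, 139.8 and 133 CPM in control oocytes. Igf2bp2 was lower and both others were higher in every embryo library than in any oocyte library. Igf2bp2 fell by 3.13 (SE 0.09) on the log2 scale in knockouts and fell by 3.29 (SE 0.09) in controls, Igf2bp1 rose by 4.95 (SE 0.24) on the log2 scale in knockouts and rose by 5.45 (SE 0.27) in controls and Igf2bp3 rose by 0.70 (SE 0.07) on the log2 scale in knockouts and rose by 0.73 (SE 0.08) in controls. Per kilobase, Igf2bp2 supplied 45.5% ± 0.744 of the reads of the 3 genes in knockout embryos and 39.2% ± 2.95 in control embryos, against 93.3% ± 0.268 in knockout oocytes and 92.5% ± 0.153 in control oocytes. Igf2bp1 had the lowest level per kilobase of the 3 genes in every library, and the ranges of Igf2bp2 and Igf2bp3 overlapped in knockout embryos. All changes of poly(A)-binding and storage factors given above passed edgeR in knockouts and in controls except that of Ybx2 in knockouts, and the largest edgeR adjusted p among the ones that passed was 1.3e-05.

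**Figure D2:**
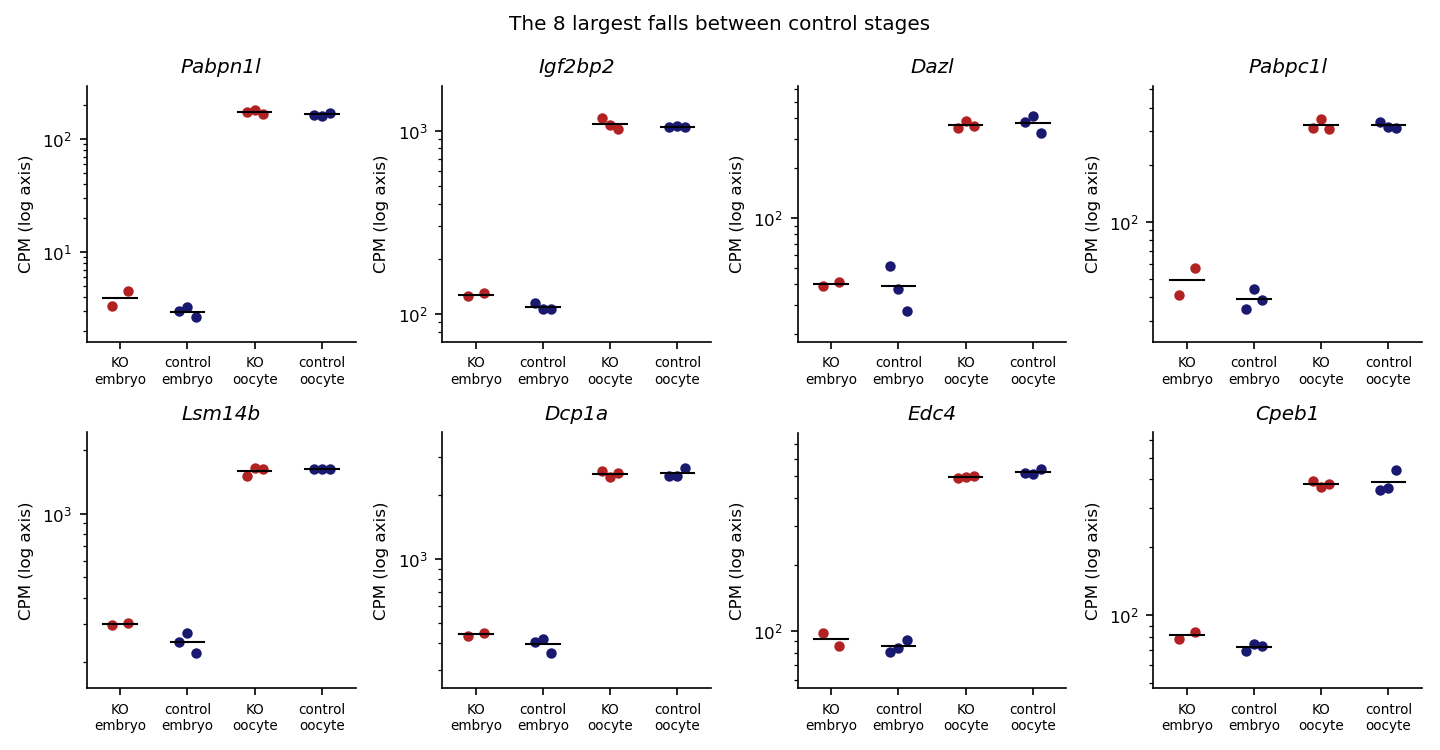
CPM on a log axis in each library (points) with the group mean (line) for the 8 genes with the largest falls in control embryos against control oocytes. In each panel the 5 embryo points lie below the 6 oocyte points, and Pabpn1l shows the widest gap.

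The log2 changes of the 9 deadenylation genes lay between -1.15 and 0.98 in controls. Btg4, the adaptor that brings CCR4-NOT to maternal mRNA in the mouse, remained the most abundant member per kilobase in every group, with 644 RPKM (CPM divided by gene length in kilobases) in knockout embryos and 555.5 RPKM in control embryos, against 887 RPKM in knockout oocytes and 924.5 RPKM in control oocytes. In CPM it averaged 1246 ± 261 CPM in knockout embryos and 1075 ± 189 CPM in control embryos, against 1717 ± 133 CPM in knockout oocytes and 1790 ± 75.1 CPM in control oocytes. Btg4 fell by 0.51 (SE 0.14) on the log2 scale in knockouts and fell by 0.76 (SE 0.13) in controls. The scaffold of the complex, Cnot1, averaged 741 ± 21.3 CPM in knockout embryos and 747 ± 46.0 CPM in control embryos, against 372 ± 13.8 CPM in knockout oocytes and 399 ± 26.5 CPM in control oocytes and rose, by 0.95 in knockouts and 0.88 in controls.

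The catalytic subunits changed in opposite directions within each pair, and their levels lay closer together in embryos than in oocytes. Of the CAF1 pair, Cnot7 averaged 570.1 ± 10.5 CPM in knockout embryos and 509 ± 77.4 CPM in control embryos, against 749.5 ± 25.1 CPM in knockout oocytes and 783 ± 16.7 CPM in control oocytes, while Cnot8 averaged 241 ± 27.6 CPM in knockout embryos and 229 ± 3.70 CPM in control embryos, against 122 ± 4.65 CPM in knockout oocytes and 123 ± 1.73 CPM in control oocytes. Cnot7 fell by 0.44 in knockouts and by 0.64 in controls, and Cnot8 rose by 0.93 and 0.88. Of the CCR4 pair, Cnot6l, a deadenylase of maternal mRNA in the mouse, averaged 486 ± 41.0 CPM in knockout embryos and 489 ± 63.3 CPM in control embryos, against 936 ± 37.2 CPM in knockout oocytes and 986 ± 27.0 CPM in control oocytes, and Cnot6 averaged 121 ± 6.92 CPM in knockout embryos and 124 ± 11.3 CPM in control embryos, against 63.2 ± 0.665 CPM in knockout oocytes and 61.4 ± 1.08 CPM in control oocytes. Cnot6l fell by 0.99 in knockouts and by 1.03 in controls, and Cnot6 rose by 0.88 and 0.98. Cnot7 thus made up 56.2% ± 3.27 of the CAF1 pair per kilobase in knockout embryos and 54.4% ± 3.65 in control embryos, against 76.8% ± 0.399 in knockout oocytes and 77.6% ± 0.594 in control oocytes. Cnot6l made up 76.3% ± 2.56 of its pair in knockout embryos and 76.0% ± 0.801 in control embryos, against 92.2% ± 0.233 in knockout oocytes and 92.8% ± 0.290 in control oocytes.

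The other deadenylases also split. Pan3, the adaptor of PAN2, averaged 696 ± 1.16 CPM in knockout embryos and 648 ± 8.11 CPM in control embryos, against 356 ± 21.6 CPM in knockout oocytes and 354 ± 14.8 CPM in control oocytes, and Pan3 rose by 0.92 (SE 0.08) on the log2 scale in knockouts and rose by 0.85 (SE 0.08) in controls. Pan2, the nuclease of that complex, averaged 198 ± 10.1 CPM in knockout embryos and 209.6 ± 31.2 CPM in control embryos, against 244 ± 20.8 CPM in knockout oocytes and 250.4 ± 10.2 CPM in control oocytes. Its fall was small, by 0.35 in knockouts (edgeR adjusted p = 0.0082) and by 0.28 in controls (edgeR adjusted p = 0.031). In controls it missed the threshold with DESeq2 (-0.18), with RLE size factors (-0.18), with a count minimum of 50 (-0.23) and without control embryo replicate 1 or 3 or control oocyte replicate 1 or 3 (-0.29 to -0.21). Pan2 made up 15.8% ± 0.657 in knockout embryos and 17.6% ± 2.15 in control embryos, against 31.3% ± 2.28 in knockout oocytes and 31.9% ± 1.06 in control oocytes of the pair per kilobase. Parn, the poly(A)-specific ribonuclease, averaged 33.5 ± 1.99 CPM in knockout embryos and 34.8 ± 3.10 CPM in control embryos, against 73.8 ± 5.25 CPM in knockout oocytes and 76.0 ± 3.16 CPM in control oocytes and fell by 1.19 in knockouts and 1.15 in controls. Apart from Pan2 and the knockout Btg4 change (edgeR adjusted p = 0.0099), every change of a deadenylation gene named here had an edgeR adjusted p of at most 4.9e-04.

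Zfp36l2, a zinc finger protein that brings CCR4-NOT to AU-rich elements and is needed in mouse oocytes, had 104 and 83.6 CPM in knockout embryos and 82.1, 84.0 and 85.7 CPM in control embryos, against 21.1, 21.9 and 18.6 CPM in knockout oocytes and 20.8, 19.9 and 19.11 CPM in control oocytes. Zfp36l2 rose by 2.15 (SE 0.11) on the log2 scale in knockouts and rose by 2.05 (SE 0.10) in controls. All 5 embryo libraries were above all 6 oocyte libraries. Its relative Zfp36l1 was near the detection floor, with 0.514 and 0.724 CPM in knockout embryos and 0.222, 0.470 and 0.304 CPM in control embryos, against 0.236, 0.213 and 0.450 CPM in knockout oocytes and 0.0614, 0.126 and 0.208 CPM in control oocytes, where 3 counts correspond to 0.0754 to 0.167 CPM. It did not pass the low-count filter in oocytes or between control stages and was not tested there, and Zfp36l2 made up 98.3% ± 0.910 of the pair per kilobase in knockout oocytes and a larger share in the other groups. Between knockout embryos and knockout oocytes Zfp36l1 did not pass (log2 0.98, SE 0.52, edgeR adjusted p = 0.11), but did without knockout oocyte replicate 3 (log2 1.40).

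The m6A readers differed from each other. Ythdf2, which brings methylated mRNA to CCR4-NOT and acts in mouse oocyte maturation, had 330.1 and 373 CPM in knockout embryos and 348, 344 and 385 CPM in control embryos, against 84.6, 85.5 and 84.4 CPM in knockout oocytes and 82.7, 82.9 and 82.5 CPM in control oocytes. Ythdf2 rose by 2.01 (SE 0.08) on the log2 scale in knockouts and rose by 2.09 (SE 0.08) in controls, with no overlap between stages. Ythdf3 averaged 370.3 ± 17.1 CPM in knockout embryos and 375 ± 16.1 CPM in control embryos, against 368 ± 6.55 CPM in knockout oocytes and 377 ± 5.20 CPM in control oocytes, and its log2 change was -0.04 in knockouts (95% interval -0.19 to 0.11) and -0.03 in controls (95% interval -0.21 to 0.15). Ythdf2 accordingly made up 55.3% ± 3.27 of the pair per kilobase in knockout embryos and 55.5% ± 2.42 in control embryos, against 23.1% ± 0.447 in knockout oocytes and 22.3% ± 0.250 in control oocytes.

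Both terminal uridylyltransferases of the list rose, and Tut4 (Zcchc11) rose more than any other member. It had 49.2 and 36.3 CPM in knockout embryos and 44.7, 32.4 and 46.4 CPM in control embryos, against 0.314, 0.505 and 0.423 CPM in knockout oocytes and 0.614, 0.302 and 0.182 CPM in control oocytes. Its oocyte values are only a few times the detection floor, from 7 to 20 counts per library. Tut4 rose by 6.63 (SE 0.21) on the log2 scale in knockouts and rose by 6.81 (SE 0.30) in controls. Tut7 (Zcchc6), which shares the uridylation of maternal mRNA with TUT4 in the mouse, had 162 and 149 CPM in knockout embryos and 187, 159 and 152 CPM in control embryos, against 49.9, 51.9 and 50.0 CPM in knockout oocytes and 49.0, 49.2 and 48.5 CPM in control oocytes. Tut7 rose by 1.57 (SE 0.08) on the log2 scale in knockouts and rose by 1.74 (SE 0.11) in controls. Tut7 held 78.2% ± 2.63 of the pair's reads per kilobase in knockout embryos and 79.8% ± 3.32 in control embryos, against 99.2% ± 0.175 in knockout oocytes and 99.2% ± 0.455 in control oocytes.

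Decapping factors fell or did not pass the test, whereas both exosome nucleases rose. Dcp1a, the activator of the decapping enzyme, had 435 and 449 CPM in knockout embryos and 408, 419 and 363 CPM in control embryos, against 2594, 2433 and 2519 CPM in knockout oocytes and 2453, 2438 and 2662 CPM in control oocytes. Edc4, the scaffold that joins the activator to the enzyme, had 98.0 and 85.9 CPM in knockout embryos and 80.8, 83.9 and 90.9 CPM in control embryos, against 493, 499 and 504 CPM in knockout oocytes and 519.7, 513 and 539 CPM in control oocytes. Each was several-fold lower in every embryo library than in any oocyte library. Dcp1a fell by 2.56 (SE 0.08) on the log2 scale in knockouts and fell by 2.69 (SE 0.10) in controls, and Edc4 fell by 2.49 (SE 0.08) on the log2 scale in knockouts and fell by 2.65 (SE 0.08) in controls. The enzyme itself, Dcp2, averaged 339 ± 4.45 CPM in knockout embryos and 319.6 ± 17.9 CPM in control embryos, against 327 ± 14.0 CPM in knockout oocytes and 333 ± 35.3 CPM in control oocytes. Its log2 change was 0.00 in knockouts (95% interval -0.15 to 0.16) and -0.09 in controls (95% interval -0.29 to 0.12). Dcp1a made up 60.8% ± 0.856 in knockout embryos and 59.6% ± 2.92 in control embryos, against 90.2% ± 0.300 in knockout oocytes and 90.0% ± 1.37 in control oocytes of the reads per kilobase of the pair.

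Dis3, a catalytic nuclease of the exosome, had 145 and 159 CPM in knockout embryos and 176, 167 and 166 CPM in control embryos, against 24.1, 25.8 and 24.4 CPM in knockout oocytes and 27.0, 25.4 and 22.8 CPM in control oocytes. Dis3 rose by 2.57 (SE 0.09) on the log2 scale in knockouts and rose by 2.74 (SE 0.10) in controls. Exosc10, the nuclear nuclease of the exosome, averaged 236 ± 2.29 CPM in knockout embryos and 232 ± 27.1 CPM in control embryos, against 107 ± 2.01 CPM in knockout oocytes and 105 ± 10.3 CPM in control oocytes and rose by 1.09 in knockouts and 1.12 in controls. The changes of Zfp36l2 and of the m6A, uridylation, decapping and exosome genes reported as rises or falls had edgeR adjusted p of at most 1.1e-06.

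**Figure D3:**
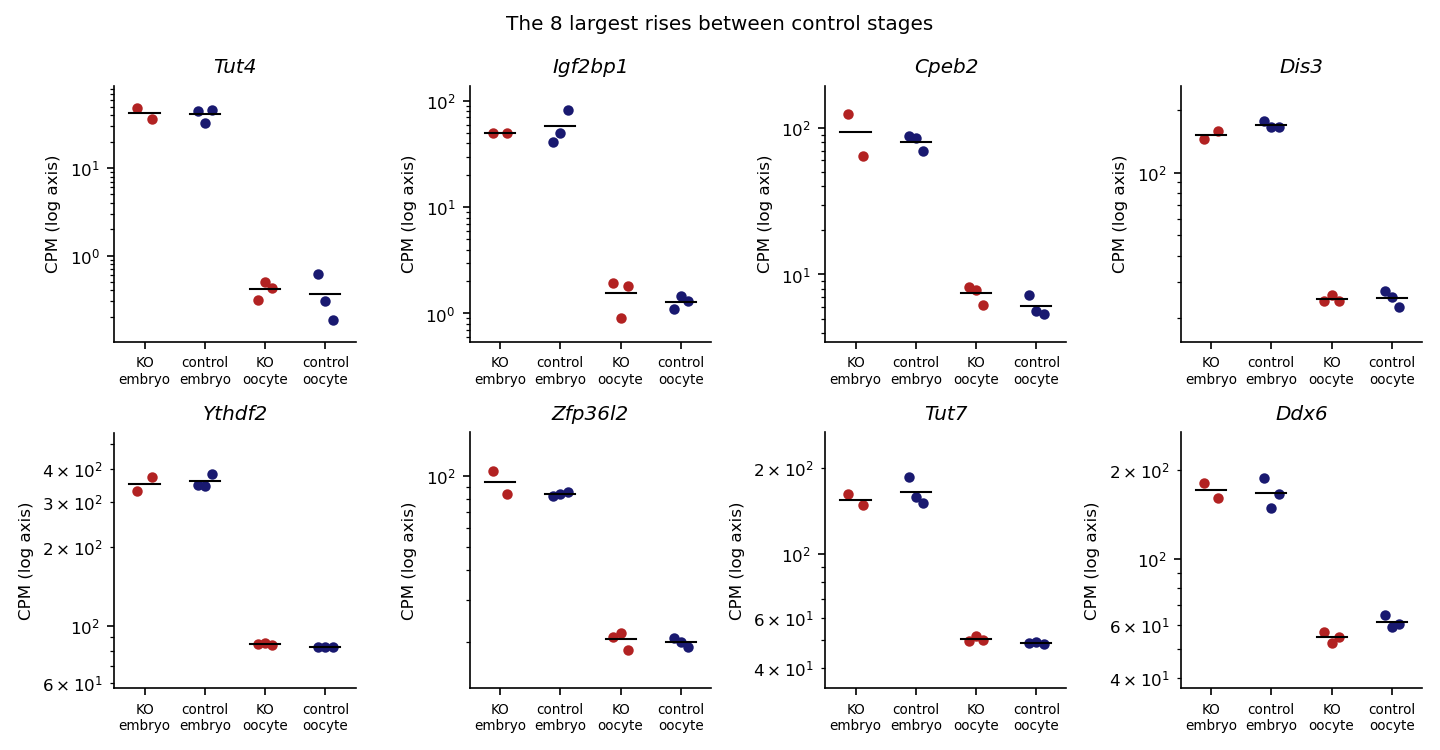
CPM on a log axis in each library (points) with the group mean (line) for the 8 genes with the largest rises in control embryos against control oocytes. In each panel the 5 embryo points lie above the 6 oocyte points, from 0.182 CPM in a control oocyte library for Tut4 to 385 CPM in a control embryo library for Ythdf2.

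The order of levels per kilobase changed with these movements. In knockout embryos Btg4 was followed by Cnot7 (143 RPKM), Pan3 (140.1 RPKM), Eif4enif1 (135 RPKM) and Eif4e1b (134 RPKM), and in control embryos by Eif4enif1 (133 RPKM), Pan3 (130.3 RPKM), Cnot7 (128 RPKM) and Eif4e1b (108 RPKM). In knockout oocytes Btg4 was followed by Lsm14b (551 RPKM), Eif4e1b (462 RPKM), Dcp1a (344 RPKM) and Igf2bp2 (270.2 RPKM), and in control oocytes by the same 4 genes in the same order (562, 467, 344.5 and 262 RPKM). In knockout embryos the library range of Eif4e1b overlapped those of Cnot7, Pan3 and Eif4enif1, and the ranges of Pan3 and Eif4enif1 overlapped. In control embryos the ranges of Eif4enif1, Pan3 and Cnot7 overlapped, and that of Eif4e1b overlapped those of Eif4enif1 and Cnot7, so that most ranks of these genes are not separated. The ranges without overlap were those of Cnot7 above Pan3 and Eif4enif1 in knockout embryos and of Pan3 above Eif4e1b in control embryos. The 5 leading genes of each oocyte group did not overlap. Pabpn1l was 33rd of 34 in both embryo groups and ninth in both oocyte groups.

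**Figure D4:**
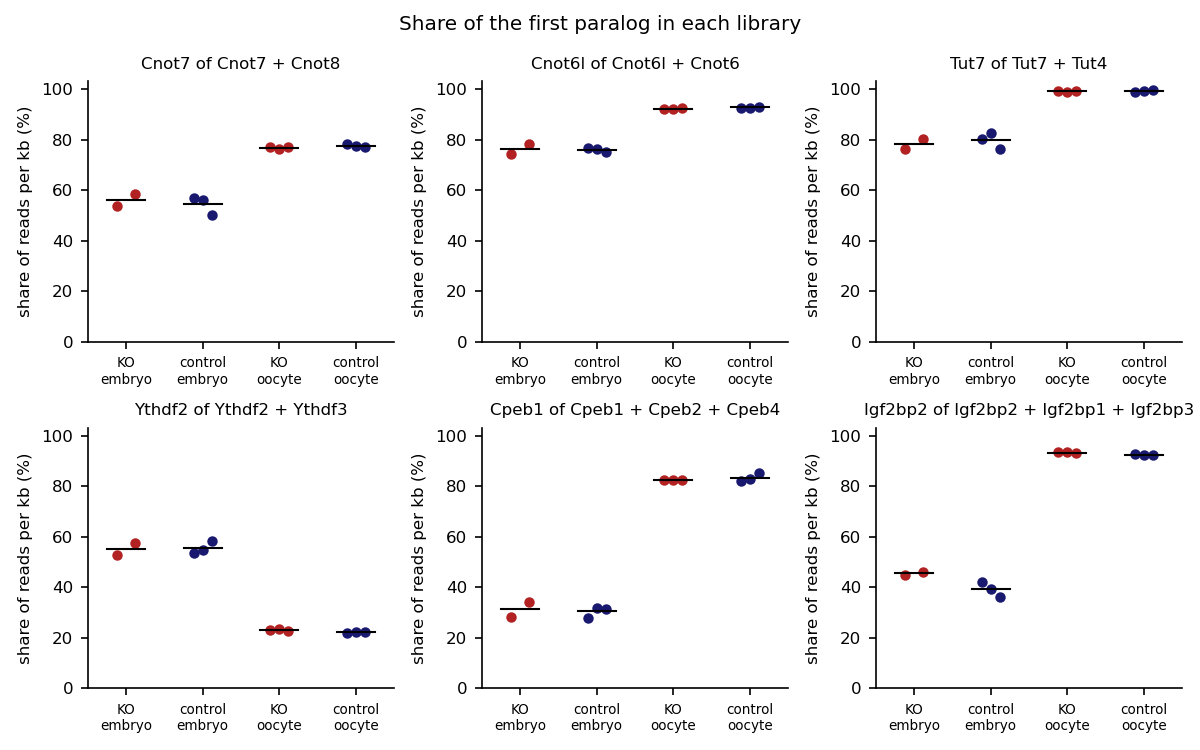
Share of the first-named gene in the reads per kilobase of its pair or trio, in percent, in each library (points) with the group mean (line). The shares of Cnot7, Cnot6l, Tut7, Cpeb1 and Igf2bp2 are lower in all 5 embryo libraries than in any oocyte library, and that of Ythdf2 is higher.

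The genotype of the mother did not move any of the 34 genes past the threshold. Between knockout and control embryos, 0 of 34 members passed edgeR (0.0260% of the 15414 genes tested were higher and 0 were lower), with 0 members at an unadjusted p under 0.05 (3.19% of all genes) and 0 by DESeq2 or limma-voom. Between knockout and control oocytes, 0 of 33 passed edgeR (0.450% of the 14235 genes tested were higher and 0.133% lower), with 3 at an unadjusted p under 0.05 (10.3% of all genes) and 0 by DESeq2 or limma-voom after adjustment. The median log2 change of the members was 0.04 in embryos, against 0.00 for all genes, and -0.04 in oocytes, against 0.00 for all genes.

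The 95% intervals give the sizes of change that these libraries leave possible. In oocytes, 30 of 33 members had a 95% interval within 0.5 of 0 on the log2 scale, and the wider ones belonged to Tut4, Cpeb2 and Igf2bp1, all at low oocyte levels. In embryos, 24 of 34 intervals lay within 0.5 and 32 within 1, the exceptions to the latter being Zfp36l1 and Pabpn1l. The others beyond 0.5 belonged to Btg4, Pabpc1l, Ybx2, Cpeb2, Lsm14b, Eif4e1b, Dazl and Igf2bp1, among them the most abundant member per kilobase, Btg4. Libraries of the genotypes did not overlap for 10 members in embryos, 8 higher and 2 lower (11.4% and 6.38% of all genes), and for 8 of the 33 members tested in oocytes, 4 higher and 4 lower (10.1% and 5.66% of all genes). Zfp36l1, which did not pass the low-count filter in oocytes, was also higher there without overlap. Igf2bp3 was lower without overlap at both stages and passed at neither. Its log2 change was -0.16 in oocytes and -0.18 in embryos (95% interval -0.46 to 0.10 in embryos). The smallest p-values are given below as values and not as changes.

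In embryos they belonged to Eif4e1b, Lsm14b, Pabpc1l and Zfp36l1, all with a mean above control. Eif4e1b had 279 and 327 CPM in knockout embryos, against 216, 282 and 234 CPM in control embryos (log2 0.28, SE 0.15, 95% interval -0.04 to 0.60). Lsm14b had 299 and 304 CPM in knockout embryos, against 247, 273 and 221 CPM in control embryos (log2 0.25, SE 0.14, 95% interval -0.05 to 0.55). Pabpc1l had 41.2 and 56.9 CPM in knockout embryos, against 34.8, 44.5 and 38.8 CPM in control embryos (log2 0.29, SE 0.19, 95% interval -0.11 to 0.68). The ranges of knockout and control embryos overlapped for Eif4e1b and Pabpc1l and not for Lsm14b. Zfp36l1 had 0.514 and 0.724 CPM in knockout embryos, against 0.222, 0.470 and 0.304 CPM in control embryos (log2 0.85, SE 0.61, 95% interval -0.45 to 2.14), on 4 to 15 reads per library. The edgeR adjusted p was 1.00 for each of the 4 genes.

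In oocytes they belonged to Igf2bp3, Ddx6, Edc4 and Ybx2, all with a mean below control. Igf2bp3 had 128, 119 and 121 CPM in knockout oocytes, against 131, 139.8 and 133 CPM in control oocytes (log2 -0.16, SE 0.05, 95% interval -0.26 to -0.05). Ddx6 had 57.0, 52.4 and 54.7 CPM in knockout oocytes, against 64.8, 59.4 and 60.6 CPM in control oocytes (log2 -0.19, SE 0.06, 95% interval -0.32 to -0.06). Edc4 had 493, 499 and 504 CPM in knockout oocytes, against 519.7, 513 and 539 CPM in control oocytes (log2 -0.09, SE 0.04, 95% interval -0.18 to -0.0005). For these 3 genes every knockout library was below every control library. Ybx2 had 278, 285 and 265 CPM in knockout oocytes, against 299.8, 279.5 and 290.0 CPM in control oocytes (log2 -0.09, SE 0.04, 95% interval -0.18 to 0.00), and its ranges overlapped. The edgeR adjusted p was 0.22 for Igf2bp3, 0.24 for Ddx6, 0.48 for Edc4 and 0.50 for Ybx2.

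**Figure D5:**
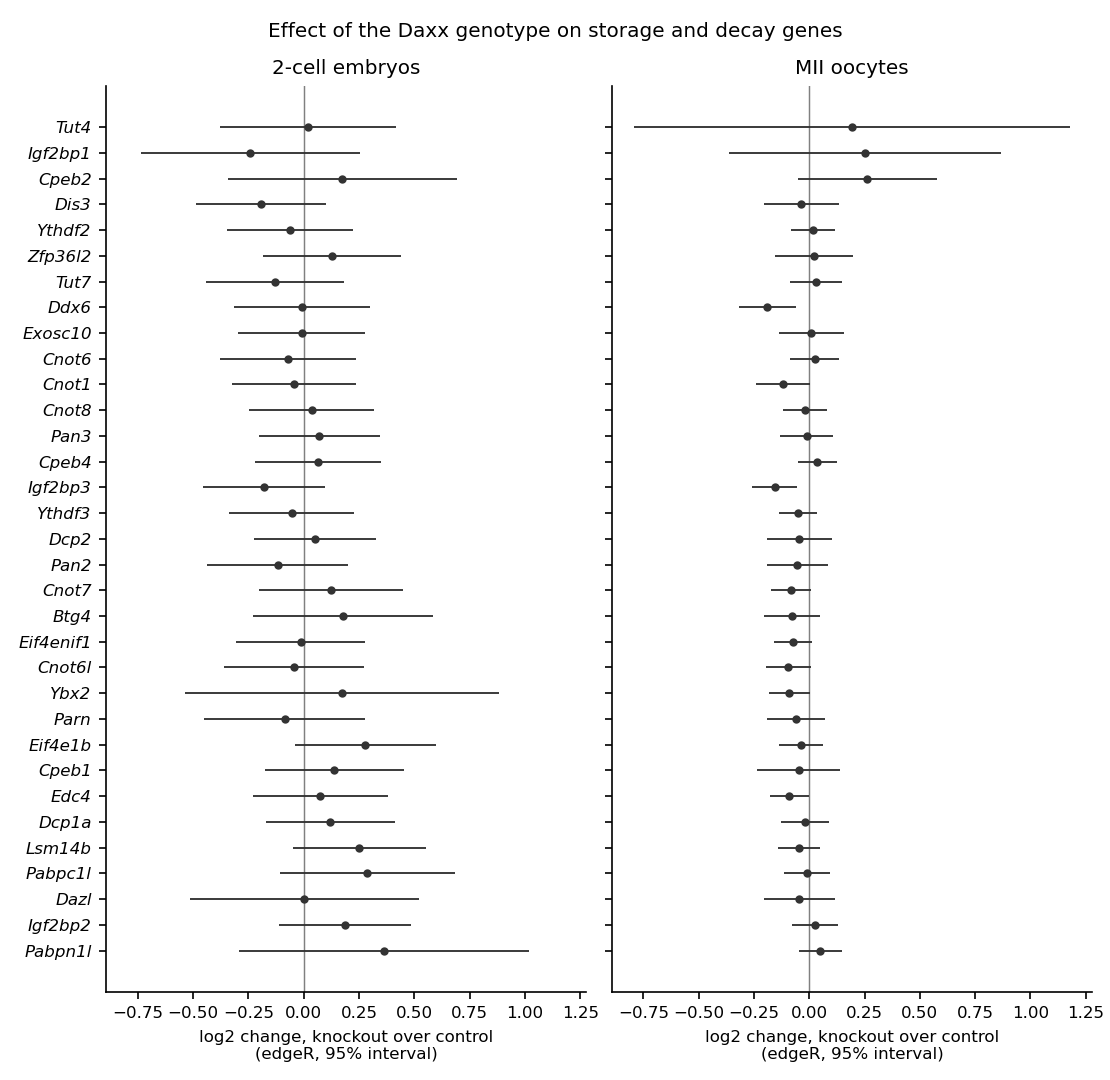
Log2 change of 33 genes between knockout and control pools of 2-cell embryos (left) and MII oocytes (right), with 95% intervals from edgeR, in the order of the stage change in controls. Zfp36l1, with 4 to 15 reads per embryo library, is not drawn, and most embryo intervals are wider than the oocyte interval of the same gene.

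The genotype effect in embryos minus that in oocytes was tested in 1 fit of all 11 libraries, which is the same contrast as the stage change in knockouts minus that in controls. Of the 34 members, 0 passed edgeR (0.0118% of 17018 genes were higher and 0 lower), 1 had an unadjusted p under 0.05 (5.41% of all genes) and 0 passed by DESeq2 or limma-voom. That one was Lsm14b, whose fall was smaller in knockouts by 0.29 (SE 0.13, edgeR adjusted p = 0.91). For 22 of the 34 members the 95% interval of the difference lay within 0.5 of 0 on the log2 scale, and for 31 within 1. Those beyond 1 belonged to Igf2bp1, Tut4 and Zfp36l1, which had low counts in oocytes. The others beyond 0.5 belonged to Btg4, Cnot7, Pabpn1l, Pabpc1l, Ybx2, Cpeb2, Lsm14b, Eif4e1b and Dazl.

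Other genes of the same pathways were read from 6 lists, for context. Of all genes tested between the control stages, 43.1% rose and 40.0% fell, which is the background for the counts of each list. Of 16 other deadenylation genes, 7 rose and 6 fell in control embryos against control oocytes. Btg3, an antiproliferative relative of BTG4, averaged 11.4 ± 2.18 CPM in control embryos and 0.642 ± 0.129 CPM in control oocytes, and Tob1, an adaptor of CCR4-NOT, averaged 249 ± 15.0 CPM in control embryos and 34.9 ± 1.64 CPM in control oocytes. The CCR4-NOT subunits Cnot11 and Cnot3 fell furthest, with 31.0 ± 1.29 CPM in control embryos and 206 ± 2.71 CPM in control oocytes for Cnot11 and 181 ± 24.0 CPM in control embryos and 646 ± 11.8 CPM in control oocytes for Cnot3. Of 22 tested decapping and 5' to 3' decay genes, 9 rose and 10 fell. Smg5, a factor of nonsense-mediated decay, had the largest rise, by 4.06 on the log2 scale, and the decapping enhancer Edc3 the second, by 2.80. Patl2, an oocyte RNP protein, fell by 3.99 and Lsm3, of the LSM ring, by 3.20.

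Of 22 other exosome and 3' to 5' decay genes, 9 rose and 9 fell, led by the exosome cofactor C1d, which rose by 6.01, and the core subunit Exosc6, which rose by 3.31, while Zcchc8 (log2 -3.06) and Rbm7 (log2 -2.16), which form the nuclear exosome targeting complex with MTREX, fell. Of 47 other poly(A), translational control and storage genes, 22 rose and 23 fell. Zar1, a maternal RNA-binding protein, averaged 35.6 ± 6.82 CPM in control embryos and 675 ± 19.0 CPM in control oocytes, and Tent5c, a poly(A) polymerase, averaged 122 ± 20.7 CPM in control embryos and 999.8 ± 26.4 CPM in control oocytes. Its relative Tent5a averaged 8.41 ± 3.24 CPM in control embryos and 0.102 ± 0.0887 CPM in control oocytes. Nanos3, a germ cell repressor, averaged 1.62 CPM in control embryos and was at or below the floor of 3 counts in every control oocyte library, so no fold is given. Pabpc1, the somatic cytoplasmic poly(A)-binding protein, is named after its values were seen: it averaged 751 ± 74.6 CPM in control embryos and 14.1 ± 0.841 CPM in control oocytes, a rise by 5.71 beside the fall of Pabpc1l.

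Of 14 m6A writers, erasers and other readers, 8 rose and 5 fell. The reader Ythdf1 rose by 2.04 and Cbll1 (HAKAI), of the writer complex, by 2.52. Mettl14, the partner of the methyltransferase, and Virma, a writer scaffold, fell (log2 -1.62 and -1.67). Of 16 messages known as dormant or destroyed maternal transcripts, 14 fell and 2 rose, with a median log2 change of -2.57, against 0.07 for all genes tested. The fall could be foreseen, since the list was made of such messages with earlier results of these data known. Its genes Zp1, Zp2, Zp3, Gdf9, Bmp15 and Oosp1 are also oocyte markers used above to tell the stages apart. The oocyte linker histone gene H1f8 averaged 57.2 ± 6.57 CPM in control embryos and 2197 ± 87.4 CPM in control oocytes, and the meiotic kinase gene Mos averaged 6.09 ± 1.82 CPM in control embryos and 193 ± 17.9 CPM in control oocytes. The 2 that rose were Tex19.1, by 0.79, and Tpx2, a spindle factor, by 0.57. In knockouts the same lists gave 7 rises and 6 falls, 10 and 10, 9 and 10, 21 and 23, 7 and 5, and 2 and 14, in the order above. Of all genes tested between the knockout stages, 42.5% rose and 37.7% fell. No gene of the 6 lists passed edgeR between genotypes in embryos or oocytes or in the difference between stages, and 0 passed by DESeq2 or limma-voom. Per list and comparison, 0 to 4 genes had an unadjusted edgeR p under 0.05. Of all genes tested, 3.19% had such a p in embryos, 10.3% in oocytes and 5.41% in the difference.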

How the data were processed

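The authors deposited whole-number read counts for 24421 genes in 11 libraries of total RNA (SoLo RNA-Seq libraries, per the labels' protocols), with a width per gene, taken here as its length in bases. Reads were mapped to GRCm38 (mm10) with STAR 2.5.0a, and SAMtools was used, per the submitters' processing notes. How reads were counted (program, strand, shared and duplicate reads) was not given in the sources used here. Gene symbols and coordinates came from a RefSeq table of the same build (GRCm38.p6), which matched 24387 gene identifiers. A knockout embryo replicate 1 was not analysed here.

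Groups follow genotype and stage as labelled. CPM scales a count by the library total, and RPKM also by width. Tests used edgeR 4.0.16 (R 4.3.3): filterByExpr (count minimum 10, total minimum 15), TMM factors, robust quasi-likelihood F tests and Benjamini-Hochberg adjustment over all genes tested in a comparison, at 0.05. Each of the 5 comparisons used the libraries of the groups compared, and the difference used all 11. The tests were tried on simulated data. The detection floor, 3 counts, was 0.0754 to 0.167 CPM by library and covers counting error only.

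The genes, the 6 lists and the tests were chosen with earlier results of these data known. All 34 genes are named, and values of every library are given for the 8 largest rises and 8 largest falls between control stages and for the 4 smallest p-values between genotypes at each stage. From each list the 2 largest rises and 2 largest falls are named, and Pabpc1 and Cpeb3 were added after their values were seen. Alternatives were DESeq2 1.42.0, limma-voom (limma 3.58.1), RLE size factors, no filter, a count minimum of 50, a replicate block, all 11 libraries in 1 fit, leaving out each library in turn and, added after the data were seen, library totals in place of TMM factors.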

Additional observations from a re-analysis of the deposited data

How the results depend on the processing

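No member that passed a test changed its sign under any alternative. In control embryos against control oocytes 15 members were higher under every alternative and 15 to 16 lower, in knockouts 15 to 16 were higher and 15 to 16 lower, and in the genotype comparisons and their difference 0 passed under any alternative. The calls that moved were those of Pan2 in controls, lost under 7 alternatives, and of Ybx2 and Zfp36l1 in knockouts, gained under 7 and 1. For Ybx2, 2 of the 7 left 1 knockout embryo library, so that the spread came from the oocytes alone and the lone library was assumed to vary like them. Of all genes tested, 16 to 153 passed as higher in knockout oocytes and 4 to 70 as lower (64 and 19 as reported), and 0 to 30 as higher in knockout embryos and 0 to 4 as lower (4 and 0 as reported). The all-gene counts without control oocyte replicate 2 were 16 and 5, and those by DESeq2 153 and 70. The cause of these shifts was not tested. Zfp36l1, at 2 to 17 reads per library, did not pass the low-count filter in oocytes or between control stages and was not tested there.

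Deviations of libraries from their group means correlated at -0.209 to 0.228 for the same replicate number and at -0.379 to 0.287 for different numbers. Deviations within a group of 2 or 3 libraries are tied to each other, so these values cannot decide whether samples were paired. With the replicate block, 0 members passed between genotypes in embryos or oocytes, and 15 were higher and 16 lower between control stages, while of all genes 78 passed as higher and 32 as lower in knockout oocytes, and 1 as higher and 1 as lower in knockout embryos.

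The share of the first gene of each pair or trio was also taken without division by gene width. Values are percent in knockout embryos, control embryos, knockout oocytes and control oocytes. They were 70.31, 68.74, 85.96 and 86.46 for Cnot7, 80.07, 79.8, 93.67 and 94.13 for Cnot6l, and 48.67, 48.89, 18.74 and 18.01 for Ythdf2. For Cpeb1 they were 15.83, 15.32, 65.75 and 67.03, and for Igf2bp2 33.25, 27.77, 89.71 and 88.52. In the pairs of partner genes they were 22.13, 24.39, 40.71 and 41.44 for Pan2 and 56.58, 55.34, 88.49 and 88.27 for Dcp1a. Pabpc1l had 92.57, 92.93, 65.09 and 66.06. The order of embryos and oocytes stayed as reported for all 8, and the shares of Tut7 and Zfp36l2 moved by less than 1 SD.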
